A study of Mus musculus with 8 samples.

Results

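The genes described here mark neurons of the cerebellum or its developmental territory, and were followed across 8 microarrays of RNA whose source was labelled astrocyte and whose tissue was labelled spinal cord. The 10 genes were Gabra6, Cbln3, Cbln1, Neurod1, Zic1, Zic2, En2, Cnpy1, Pcp2 and Calb1, of 25883 genes measured in all. They were found by the gene name in the scanner files, which gave 17 probes, and they had been chosen by their log2 signals on these same 8 arrays, for large differences between single arrays. Their levels and differences below are therefore descriptions, and no test was made on them.

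All mice were C57Bl/6J. The Cx47-deficient groups, whose titles read icKO, comprised a naive one, one with acute experimental autoimmune encephalomyelitis (EAE), one with EAE under iguratimod treatment and one in the chronic phase of EAE. The wild-type (WT) groups, whose titles read FL or F/F, covered the same 4 conditions. EAE is a mouse model of multiple sclerosis, iguratimod is an anti-inflammatory drug, and Cx47 is the connexin through which oligodendrocytes couple to astrocytes. The title of the series calls the knockout conditional and specific to oligodendroglia, and the driver of the deletion, the age and sex of the mice and the way cells were isolated were not given in the sources used here. Each group was 1 array, so no difference has a replicate check, and whether an array carried 1 animal or a pool was not given. The naive WT array was the control that the submitters named.

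The granule neuron is the small excitatory neuron that fills the inner layer of the cerebellar cortex, and its fibres synapse on Purkinje cells, which are inhibitory and form the output of that cortex. Gabra6 encodes a GABA-A receptor subunit found mainly in granule neurons. Cbln1 and Cbln3 encode secreted proteins of granule neurons, and Cbln1 organises the synapse with the Purkinje cell. Neurod1, Zic1 and Zic2 encode transcription factors of granule neurons and of other neurons, some in the spinal cord, and En2 encodes a homeobox factor of the midbrain-hindbrain border. Cnpy1 is known from zebrafish as a gene of FGF signalling at that border. Pcp2 is a classical Purkinje cell gene, and Calb1 encodes a calcium-binding protein of Purkinje cells that other neurons also make.

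The arrays held 60-base probes, and the first 30 bases of 4 of them are shown because these probes gave the values of the granule genes Gabra6 and Cbln3, of Cnpy1, which had the widest range, and of the Purkinje gene Pcp2. Probe positions are on the mm9 build, all on the minus strand, and each probe lies in the gene's transcript per the array annotation.
Gabra6 probe, chr11:42120087-42120146: tgcatatgtacatagctttagttatgctgc
Cbln3 probe, chr14:56501187-56501246: acattctgcaggtaaactgggacagtcaga
Cnpy1 probe, chr5:28528991-28529050: taattattcagcatgtgtgggtacaggtta
Pcp2 probe, chr8:3623377-3623436: gttctagccatcctgggcctcccactggcc

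Since the levels of the 10 genes varied together, the 250 bases before the start of Gabra6, Cbln3 and Pcp2 are shown from RefSeq on GRCm38.p6, minus strand, 5′ to 3′. Capitals mark CANNTG, the E-box bound by basic helix-loop-helix factors such as Neurod1, which reads the same on both strands in this degenerate form.
Gabra6 promoter, chr11:42321073-42321322: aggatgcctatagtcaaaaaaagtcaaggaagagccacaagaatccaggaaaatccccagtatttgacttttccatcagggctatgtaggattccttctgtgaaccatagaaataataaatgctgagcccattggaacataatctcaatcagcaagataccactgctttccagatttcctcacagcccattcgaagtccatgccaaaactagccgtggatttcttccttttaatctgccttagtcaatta
Cbln3 promoter, chr14:55884257-55884506: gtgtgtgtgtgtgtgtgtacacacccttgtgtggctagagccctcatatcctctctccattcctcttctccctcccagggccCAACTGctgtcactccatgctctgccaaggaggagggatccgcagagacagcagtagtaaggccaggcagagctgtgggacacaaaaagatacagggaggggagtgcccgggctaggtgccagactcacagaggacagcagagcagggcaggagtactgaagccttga
Pcp2 promoter, chr8:3625548-3625797: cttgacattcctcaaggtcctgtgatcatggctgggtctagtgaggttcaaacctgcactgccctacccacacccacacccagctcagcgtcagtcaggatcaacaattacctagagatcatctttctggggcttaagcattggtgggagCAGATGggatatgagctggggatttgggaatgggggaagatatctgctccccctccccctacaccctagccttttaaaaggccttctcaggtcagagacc
The Gabra6 stretch held 0 matches, and the Cbln3 and Pcp2 stretches held 1 each. RefSeq windows were matched for 6 of the 10 genes, with 10 windows in all. In the first 250 bases of these windows 9 held CANNTG, from 5 of the 6 genes, against 66.2% of 32851 mouse windows. Windows of the same gene, 4 for Pcp2, are not separate observations. The form CAGATG, searched on both strands and itself one of the CANNTG forms, was in 4 of the 10 windows, those of Cnpy1 and Pcp2, against 14.4% of all windows. A match describes the letters only.

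Levels are log2 of the background-corrected signal minus the 75th percentile of the array, so that 0 is that percentile. The scanner software's own error was between 0.14 and 0.20 for a level and between 0.20 and 0.25 for a difference of 2 arrays on the log2 scale, and it covers the spot only, not animals or preparations. The share of spots well above background ran from 59.7% to 72.0% over the arrays. All 10 genes were well above background on 8 of 8 arrays and saturated on 0. The chronic arrays shared slide 2, with a median local background of 58 and 57, against 73 to 82 on the other 6 arrays, all on slide 1, so slide and chronic disease cannot be told apart. In bulk RNA, more cells of a type and more RNA per cell cannot be told apart either.

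The labels were set against marker genes. The astrocyte genes on these arrays included S100b between 4.64 and 6.60 and Gfap between 0.77 and 3.87 over the 8 arrays. The myelin gene Mbp lay between 3.06 and 6.08, and the microglia and macrophage gene Csf1r between 3.62 and 5.21. The neurofilament gene Nefl of neurons was also well above background on all 8 arrays, between 4.50 and 5.98. Drd1, which encodes a dopamine receptor of striatal neurons, lay between -1.54 and 2.02 and was well above background on all 8 arrays, although the tissue label was spinal cord. Of the 19 Hox genes listed for spinal cord all were measured, with Hoxb5 between -1.55 and 1.54. The name cerebellar neuron gene holds for Gabra6, Cbln3 and Pcp2 more strictly than for Zic1, Zic2, Neurod1 and Calb1, which neurons elsewhere also express.

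The granule neuron genes Gabra6, Cbln3 and Cbln1 had levels that spanned 4.23, 4.62 and 3.39 on the log2 scale. Gabra6 lay at 3.97 naive, 2.84 in EAE, 1.66 under iguratimod and 3.07 in chronic EAE in Cx47-deficient mice, against 1.80, -0.25, 3.55 and 2.31 on the WT arrays of the same conditions. It was highest on the Cx47-deficient naive array and lowest on the WT EAE array, and only the Cx47-deficient iguratimod and WT naive levels, 0.14 apart, fell within the error of their gap. Cbln3 lay at 0.66 naive, -0.90 in EAE, -2.32 under iguratimod and -1.21 in chronic EAE in Cx47-deficient mice, against -2.07, -3.96, -0.39 and -1.74 on the WT arrays. The same 2 arrays were its extremes, and all of its 7 gaps between neighbouring levels exceeded the error. For its partner Cbln1 the Cx47-deficient levels were 6.02, 4.69, 3.75 and 5.09 in that order of conditions, against 3.99, 2.64, 5.31 and 4.18 in WT mice. The order of its 8 arrays was that of Gabra6, and its WT chronic and WT naive levels, 0.19 apart, lay within the error.

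The transcription factor genes had the same extremes with 1 exception. Neurod1, a differentiation factor of granule neurons, lay at 4.13 naive, 2.91 in EAE, 1.83 under iguratimod and 3.48 in chronic EAE in Cx47-deficient mice, against 2.17, 0.52, 3.62 and 2.71 in WT mice. Zic1, a zinc finger factor, lay at 5.79, 4.53, 3.72 and 5.31 in Cx47-deficient mice, against 3.82, 3.02, 5.18 and 4.29 in WT mice. Both were highest in the naive Cx47-deficient sample and lowest in WT EAE. Zic2 lay at 0.28, -1.47, -2.52 and 0.78 in Cx47-deficient mice, against -2.12, -3.18, -0.87 and -0.87 in WT mice. It was the only one of the 10 genes highest on the Cx47-deficient chronic array, 0.50 above the naive one, and its WT iguratimod and WT chronic levels did not differ beyond the error.

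The genes of the midbrain-hindbrain border followed. En2 lay at 3.70 naive, 2.42 in EAE, 1.20 under iguratimod and 3.09 in chronic EAE in Cx47-deficient mice, against 1.52, -0.26, 2.91 and 2.07 in WT mice. Cnpy1 lay at 0.91, -0.95, -2.59 and 0.27 in Cx47-deficient mice, against -2.06, -3.90, -0.66 and -0.45 in WT mice, the widest range of the 10 at 4.82. Both were highest in naive Cx47-deficient and lowest in WT EAE samples. En2 and Cnpy1 are neighbours on chromosome 5, with their probes 30.5 kb apart on mm9, and their levels correlated at r = 0.97 over the 8 arrays. The levels of Zic2 and of its neighbour Zic5, 23.2 kb away on chromosome 14, correlated at 0.92, and those of Zic1 and Zic4, 27.4 kb apart on chromosome 9, at 0.97. A probe for an intergenic noncoding region, chr8:90049387-90049446 on mm9 and 56.0 kb from that of Cbln1, had r = 0.99 with Cbln1 and was chosen after its values were seen.

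The Purkinje cell genes came next. Pcp2 lay at 6.18 naive, 5.55 in EAE, 4.91 under iguratimod and 5.98 in chronic EAE in Cx47-deficient mice, against 5.17, 3.38, 6.78 and 4.77 in WT mice. Calb1 lay at 5.36, 4.85, 4.42 and 5.51 in Cx47-deficient mice, against 4.87, 3.92, 5.71 and 4.78 in WT mice. Its range of 1.79 was the smallest of the 10, and its 2 other probes had ranges of 2.35 and 2.26. Pcp2 and Calb1 were lowest on the WT EAE array like the other 8 genes. Pcp2 was highest on the WT iguratimod array, 0.59 above the naive Cx47-deficient one. Calb1 was highest there too, but its lead of 0.20 over the chronic Cx47-deficient array lay within the error, and its 2 other probes were highest on that chronic array.

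**Figure D1:**
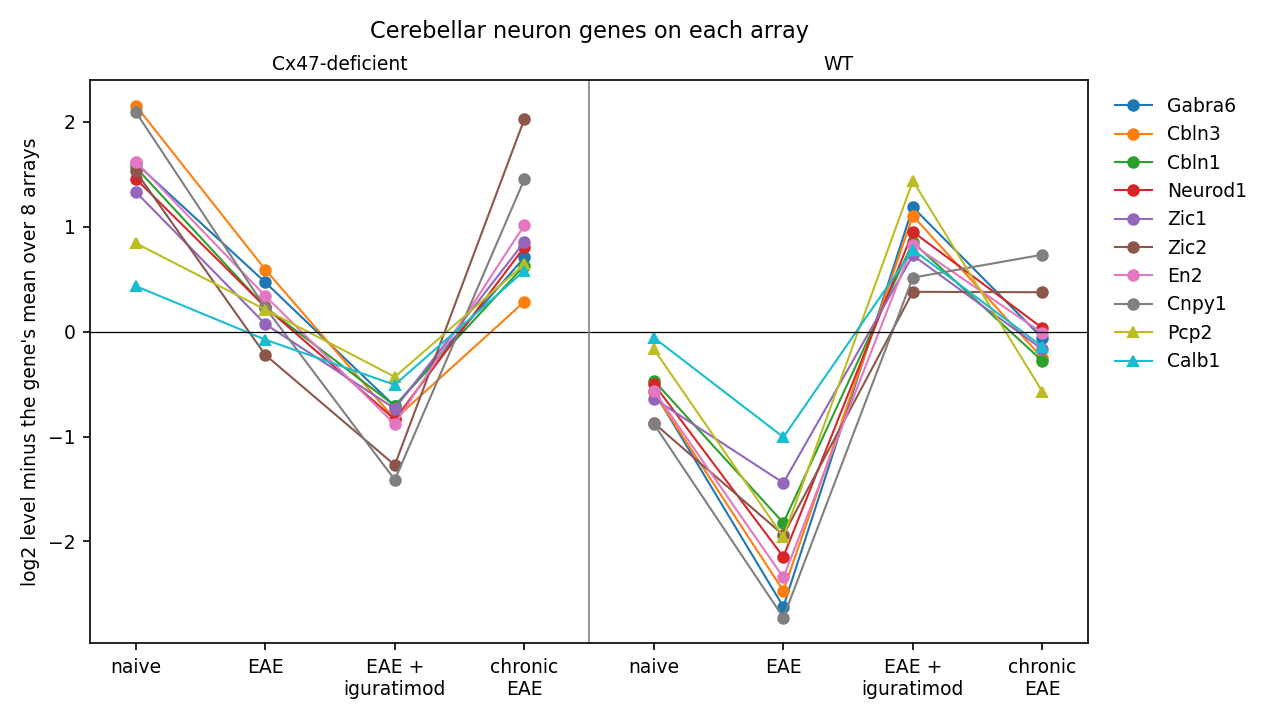
Log2 level of each of the 10 genes minus its own mean over the 8 arrays, by condition, for Cx47-deficient (left) and WT (right) mice; each point is 1 array, circles are granule neuron and border genes and triangles the Purkinje cell genes Pcp2 and Calb1. All 10 genes are lowest on the WT EAE array, and 7 are highest on the naive Cx47-deficient array.

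Across the 10 genes the order of arrays was alike. All 10 were lowest on the WT EAE array, where 15.8% of all genes had their lowest value, and 7 were highest on the naive Cx47-deficient array, where 9.91% of all genes had their highest. The second lowest array was the Cx47-deficient iguratimod one for 9 genes and the WT chronic one for Pcp2. The naive Cx47-deficient, WT iguratimod and chronic Cx47-deficient arrays were the top 3 for 8 of the 10. Of 70 gaps between neighbouring levels, 14 lay within the scanner error. The median range over arrays was 3.78 for the 10 genes and 1.08 for all genes. Correlations between the genes over the 8 arrays, which share slides and were the basis of the choice, ran from 0.74 (Zic2 with Pcp2) to 0.997, with a median of 0.93 over 45 pairs, 35 of them above 0.9.

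Other probes of 5 genes could be set beside those used. The further probes of Cbln3, Cbln1, Zic2 and Calb1, 1 each and 2 for Calb1, were well above background on 8 of 8 arrays, correlated with the used probe at 0.931 to 0.997 and were lowest on the WT EAE array. The highest array was also that of the used probe, except for both further Calb1 probes. The other probes of Cnpy1 were well above background on 5 and 3 arrays and correlated at 0.85 and 0.68. Both were dim on the WT EAE array, so they do not bear on differences that use that array, which rest on the probe used alone. The probe well above background on 5 arrays gave -2.31 for Cx47-deficient EAE minus naive, where the probe used gave -1.87.

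In naive mice, 9 of the 10 genes were at least 2-fold higher in the Cx47-deficient sample than in the WT sample and 0 were 2-fold lower. Of all genes, 8.04% were 2-fold higher and 2.63% lower in that pair of arrays, and with quantile normalization in place of the percentile the shares were 5.63% and 4.81%. Differences ran from 0.49 for Calb1 to 2.97 for Cnpy1, with a median of 2.10, a 4.30-fold ratio. Cbln3 was 2.73 ± 0.21 and Gabra6 2.18 ± 0.20 higher on the log2 scale (scanner error). The 2 Purkinje genes differed least, by 1.01 for Pcp2 and 0.49 for Calb1.

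In EAE, 9 of the 10 were again at least 2-fold higher in the Cx47-deficient sample than in the WT sample, with a median difference of 2.28. Of all genes 6.71% were 2-fold higher and 0.677% lower, and with quantile normalization 3.89% and 1.83%. Gabra6 differed by 3.09 ± 0.20, Cbln3 by 3.06 ± 0.25, Cnpy1 by 2.95 and En2 by 2.68. Pcp2 differed by 2.17 here, more than in naive mice, while Zic1 (1.51) and Zic2 (1.72) differed less than in naive mice. Calb1 was below 2-fold at 0.93 on the probe used, while its 2 other probes were above 2-fold at 1.40 and 1.38. With normexp background correction the dimmer genes Cbln3 and Cnpy1 differed by 1.92 and 1.88, less than Gabra6, En2, Neurod1, Pcp2 and Cbln1.

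With iguratimod the direction was the opposite: all 10 genes were at least 2-fold lower in the treated Cx47-deficient sample than in the treated WT sample. Of all genes 2.26% were 2-fold lower and 2.6% higher. Differences ran from -1.94 for Cbln3 to -1.29 for Calb1, with a median of -1.75, a 3.36-fold ratio. Gabra6 differed by -1.90 ± 0.20, Cnpy1 by -1.93 and Pcp2 by -1.87. With normexp background correction Cbln3 and Cnpy1 differed by -1.49 and -1.46, less in size than Gabra6, Pcp2, Neurod1, En2 and Cbln1. Whether the genotype difference with iguratimod departs from that in untreated EAE could not be tested with 1 array per group.

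In chronic EAE all 10 genes were higher in the Cx47-deficient sample than in the WT sample, 4 of them by 2-fold or more. Of all genes 1.62% were 2-fold higher and 1.29% lower. Zic2 differed by 1.65, Pcp2 by 1.21, En2 by 1.03 and Zic1 by 1.02, and the median was 0.84. The granule genes Gabra6 (0.77) and Cbln3 (0.54) stayed under 2-fold here.

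**Figure D2:**
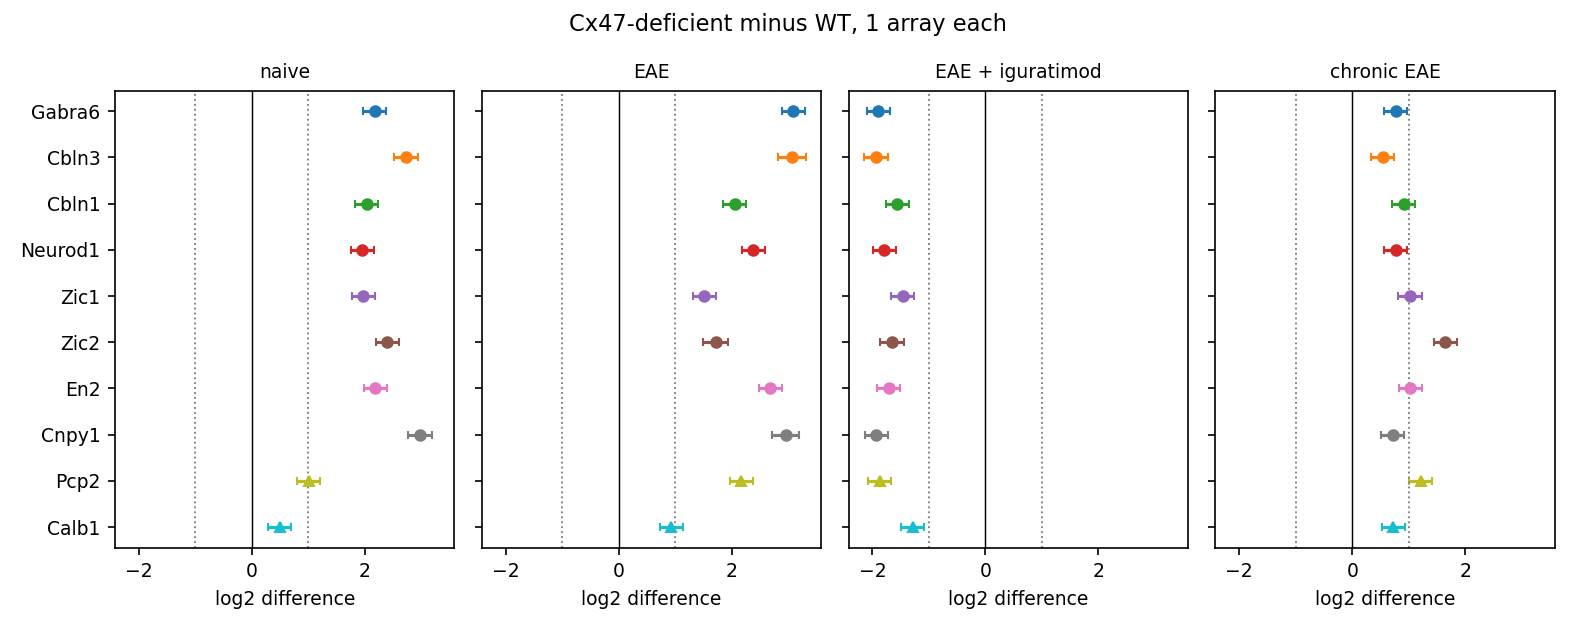
Log2 difference of each gene between the Cx47-deficient and the WT array of a condition, 1 panel per condition, with bars of 1 scanner error and dotted lines at 2-fold. Points lie right of 0 in naive, EAE and chronic EAE samples and left of 0 in the iguratimod samples.

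Between conditions within a genotype, EAE samples were lower than naive ones. In Cx47-deficient mice 8 of 10 genes were at least 2-fold lower in EAE than naive (2.11% of all genes lower, 5.08% higher), with a median of -1.27, and Cnpy1 (-1.87) and Zic2 (-1.75) differed most. In WT mice 8 of 10 were at least 2-fold lower in EAE than naive (1.92% of all genes lower, 3.34% higher), with a median of -1.71, with Gabra6 at -2.05. Cbln3 was at -1.89 and Cnpy1 at -1.85, but each at -1.05 with normexp background correction. The genes under 2-fold were Pcp2 (-0.63) and Calb1 (-0.51) in Cx47-deficient mice, and Zic1 (-0.80) and Calb1 (-0.95) in WT mice. On the WT arrays the 2 other Calb1 probes were at least 2-fold lower, at -1.24 and -1.10. The further probes of Cbln1 and Zic2 were under 2-fold there, at -0.82 and -0.71.

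Iguratimod samples differed from untreated EAE in opposite directions in the 2 genotypes. In Cx47-deficient mice 6 of 10 genes were at least 2-fold lower with iguratimod than in untreated EAE (3.53% of all genes lower, 0.268% higher), with a median of -1.06 and values from -1.64 for Cnpy1 to -0.43 for Calb1. In WT mice all 10 were at least 2-fold higher with iguratimod than in untreated EAE (3.08% of all genes higher, 1.22% lower), with a median of 3.13, an 8.78-fold ratio. Gabra6 was 3.81 ± 0.20 higher there, Cbln3 3.57, Pcp2 3.39, Cnpy1 3.24, En2 3.17 and Neurod1 3.10, and with normexp background correction Cbln3 was at 2.14 and Cnpy1 at 2.13. The WT EAE array enters this difference, the WT EAE against naive difference and the genotype difference in EAE, so these are not separate observations.

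**Figure D3:**
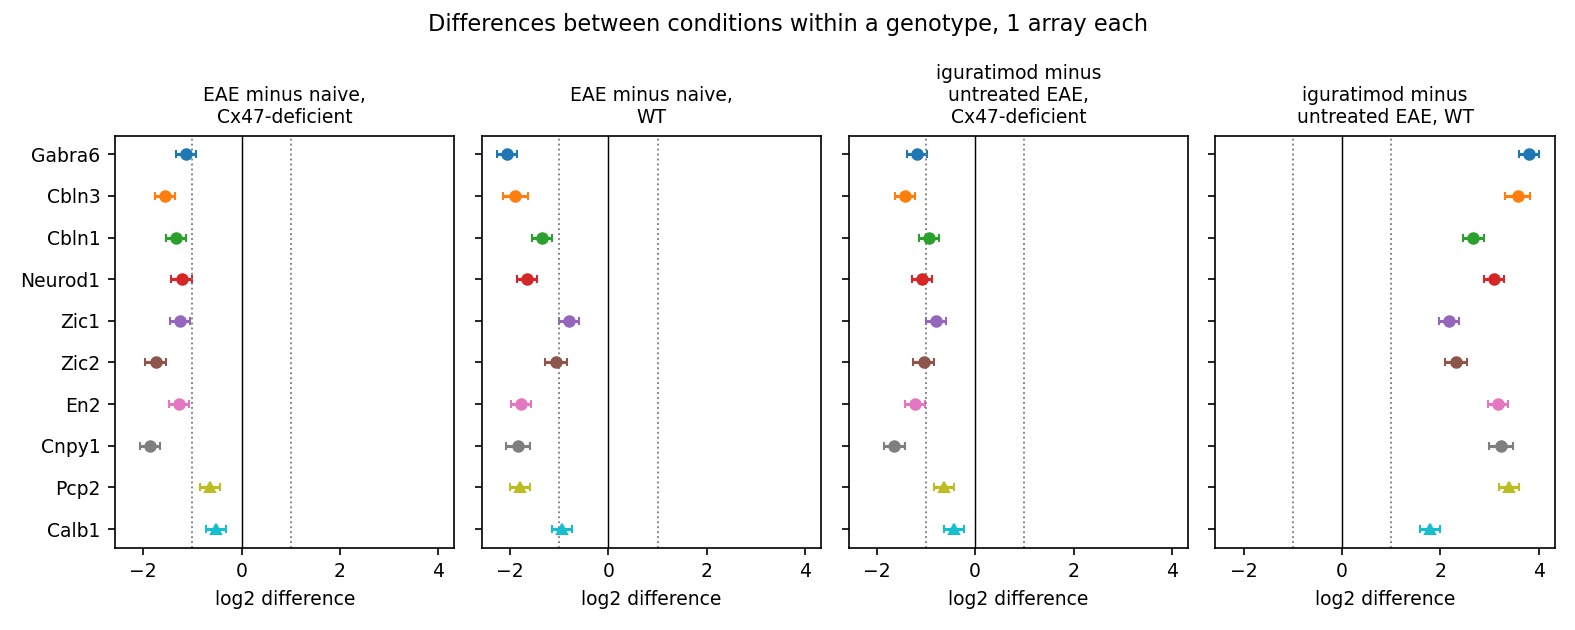
Log2 differences of each gene between conditions within a genotype, EAE minus naive and iguratimod minus untreated EAE, with bars of 1 scanner error and dotted lines at 2-fold. EAE minus naive lies left of 0 in both genotypes, and iguratimod minus untreated EAE lies left of 0 in Cx47-deficient and right of 0 in WT mice.

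Chronic samples were compared with acute EAE across the slides. In Cx47-deficient mice 2 of 10 genes were at least 2-fold higher in chronic than in acute EAE, Zic2 (2.25) and Cnpy1 (1.22), while 11.8% of all genes were higher and 5.59% lower. The share of members is near that of all genes. Cbln3 was 0.31 lower on the probe used, but 0.26 higher on its other probe and 0.18 higher with normexp background correction. In WT mice 9 of 10 were at least 2-fold higher in chronic than in acute EAE (18.1% of all genes higher, 12.5% lower), with a median of 2.20, Cnpy1 at 3.46 (2.30 with normexp background correction) and Gabra6 at 2.56 (1.96 with median centring).

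Other genes of granule neurons, listed with earlier results of these data known, were described beside the 10. Of 16 such genes, 11 were at least 2-fold higher in the Cx47-deficient than in the WT naive sample, 4 were in EAE and 0 were in chronic EAE, and 3 were 2-fold lower with iguratimod. Their medians were 1.18, 0.60, 0.56 and -0.74, smaller in size than those of the 10. In WT mice 7 of the 16 were at least 2-fold higher with iguratimod than in untreated EAE and 0 were lower. Fat2, an atypical cadherin of granule neurons, lay at 3.27 naive, 1.56 in EAE, 0.51 under iguratimod and 2.60 in chronic EAE in Cx47-deficient mice, against 0.77, -0.90, 1.85 and 1.84 in WT mice. Its highest and lowest arrays were those of Gabra6. Chn2, Zic5 and Zic4 had ranges of 2.76, 2.68 and 2.31.

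Purkinje cell genes beyond Pcp2 and Calb1 differed likewise in part. Of 18, 6 were at least 2-fold higher and 1 lower in the naive Cx47-deficient than in the naive WT sample, 8 were higher in EAE and 3 in chronic EAE, and 8 were lower with iguratimod. In WT mice 13 were at least 2-fold higher with iguratimod than in untreated EAE, with a median of 1.39. Ppp1r17, a phosphatase inhibitor of Purkinje cells, lay at 1.94 naive, 1.09 in EAE, 0.30 under iguratimod and 2.01 in chronic EAE in Cx47-deficient mice, against 0.75, -1.43, 2.07 and 0.90 in WT mice. Its WT iguratimod and Cx47-deficient chronic levels, the 2 highest, were closer than the scanner error. Of the 18 genes 14 were lowest on the WT EAE array, while 9 were highest on the chronic Cx47-deficient array and 4 on the WT iguratimod array. Car8, which encodes a carbonic anhydrase-related protein that binds the IP3 receptor, had a range of 3.18, and the homeobox gene Lhx1 a range of 2.67.

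Other cerebellar groups were like the 10 only in part. The median Cx47-deficient minus WT difference of 5 Bergmann glia genes had the sign of the 10 in each condition. It was 0.61 in naive mice, 0.33 in EAE, -0.77 under iguratimod and 1.15 in the chronic phase. The WT chronic array was the lowest for all 11 astrocyte genes. Of the 5 Bergmann glia genes 4 were also lowest there, Fabp7 among them at 1.37, and 1 on the WT EAE array. That gene, Gdf10, lay at 2.85 naive, 2.04 in EAE, 1.05 under iguratimod and 2.74 in chronic EAE in Cx47-deficient mice, against 1.56, -0.06, 2.35 and 1.59 in WT mice. Of 7 genes of unipolar brush cells and interneurons 2 were lowest on the WT EAE array, among them Tfap2b with a range of 2.44. Eomes, with a range of 3.01, was lowest in the naive WT sample, and Lmx1a, with a range of 2.89, in the chronic WT sample. For these 7 genes the median Cx47-deficient minus WT difference was 1.36 in naive mice, where 4 were 2-fold higher, and 0.60 in the chronic phase. It was -0.17 in EAE and 0.39 under iguratimod, opposite in sign to the 10 in both. Of 8 measured genes of midbrain-hindbrain patterning beyond En2 and Cnpy1, 0 were 2-fold higher in Cx47-deficient than WT samples in any condition and 3 were 2-fold lower in naive mice. In summed signal these 8 were dimmer than the 10. Their summed linear signal lay between 1.06 and 2.07, against 43.2 to 285 for the 10. Fgf17 was well above background on only 2 arrays. Gbx2, 1 of the 3 lower genes, lay at -6.07 on the naive Cx47-deficient array, under the lowest well-above-background signal there, -5.47. Fgf17 and Gbx2 are therefore a weak contrast to the 10. Lmx1b (-1.04) and Pax8 (-1.30), also among the 3 lower genes, were well above background on 8 of 8 arrays. Lmx1b lay between -2.50 and -0.64 and Pax8 between -4.42 and -2.52, while Cbln3 of the 10 went down to -3.96. En1, Atoh1 and Ptf1a of that list did not pass the filter on low signals.

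General neuron genes did not share these swings. Of 16, among them Snap25, Syn1 and Nefl, 1 was 2-fold lower in the Cx47-deficient than the WT naive sample and 0 were 2-fold different in the other 3 conditions, and their ranges ran from 0.44 to 1.48. Their summed linear signal, in units of the 75th percentile, lay between 470 and 628 over the 8 arrays, and that of the 10 genes between 43.2 and 285. Striatal neuron genes ran the other way in the genotype differences of naive, iguratimod and chronic samples. All 11 measured were at least 2-fold lower in the naive Cx47-deficient than in the naive WT sample and 10 in chronic EAE, with medians of -2.10 and -1.89, while 8 were higher with iguratimod (1.78) and 0 differed by 2-fold in EAE. Their summed signal lay between 44.7 and 141. In WT mice 7 of the 11 were at least 2-fold lower with iguratimod than in untreated EAE. From WT naive to WT EAE all 11 went down like the 10 genes, 0 of them by 2-fold, with a median of -0.66. In WT chronic against acute EAE 4 were 2-fold higher and 0 lower, with a median of 0.74. In Cx47-deficient mice the medians were 1.60 for EAE minus naive, 0.18 for iguratimod minus EAE and -1.17 for chronic minus acute EAE. Of the 19 Hox genes, 2-fold differences between naive Cx47-deficient and WT samples were upward in 4 and downward in 7, and with iguratimod there were 0. In EAE 5 were upward and 3 downward, and in chronic EAE 6 were upward, the direction of the 10 genes, and 1 downward. Of 10 choroid plexus genes, with a summed signal between 4.90 and 40.3, those 2-fold lower in Cx47-deficient than in WT samples numbered 7 with iguratimod and 4 in EAE. Those 2-fold higher numbered 1 in naive mice, 1 in EAE and 6 in chronic EAE, and 6 were 2-fold higher in WT EAE than in naive WT samples. The part of tissue composition in the values of the 10 genes was not tested.

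**Figure D4:**
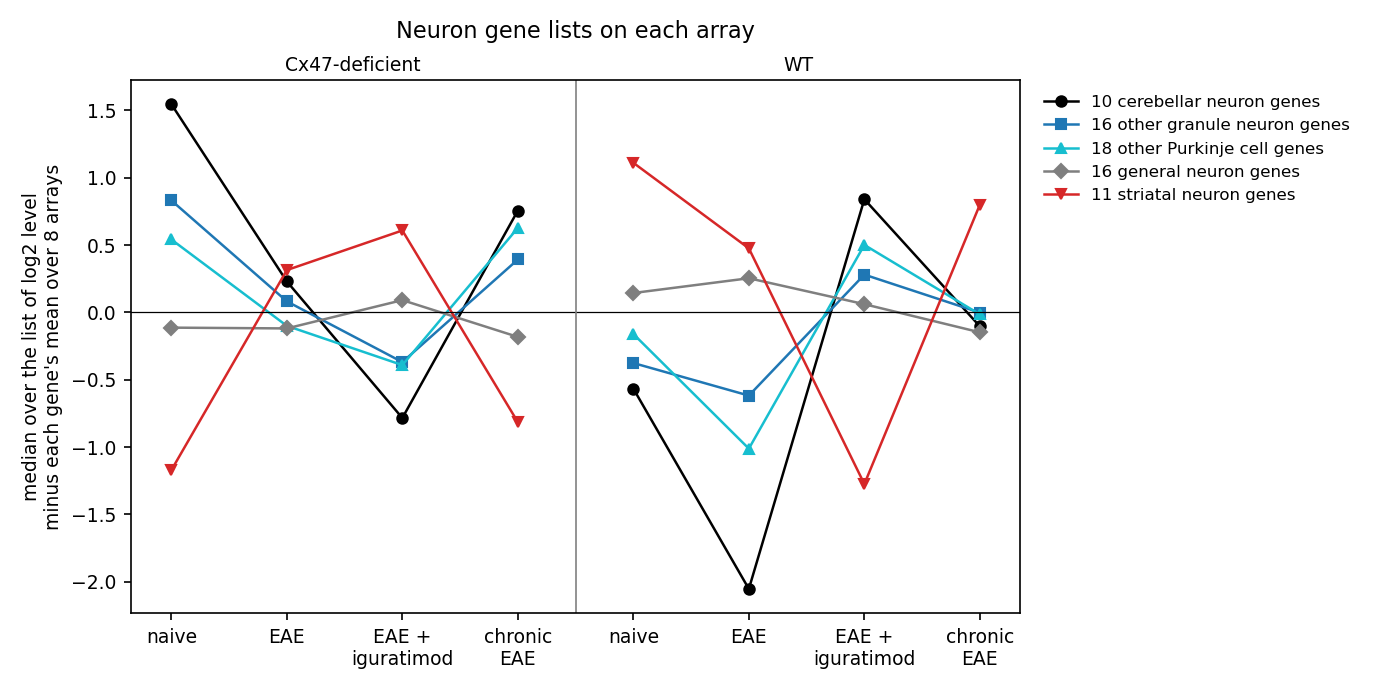
Median over each gene list of the log2 level minus each gene's own mean over the 8 arrays, for Cx47-deficient (left) and WT (right) mice, 1 array per point. The 10 genes, the granule neuron list and the Purkinje cell list are lowest on the WT EAE array, the general neuron genes stay between -0.18 and 0.25, and the striatal genes are lowest on the WT iguratimod array at -1.27.

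The genes most like the 10 were sought by Pearson's r with the median profile of the 10 over the 8 arrays. The 4387 genes compared had a range of at least 2 on the log2 scale and were well above background on at least 4 arrays. The 10 with the highest r, from 0.998 down to 0.987, were Il16, Cnksr3, Otx2, Gprc5c, Zic5, BB131254, Mrgprf, BB247860, Mybpc3 and Lhx1, and 120 genes in all exceeded 0.9. Il16, which encodes a cytokine precursor with a neuronal form in the cerebellum, lay at 1.73 naive, 0.55 in EAE, -0.32 under iguratimod and 1.13 in chronic EAE in Cx47-deficient mice, against -0.20, -1.61, 1.03 and 0.36 in WT mice. Of the top 10, 8 stayed in the top 10 with quantile normalization and 5 on the 6 arrays of slide 1 alone. Only 4 of the 16 granule neuron genes and 10 of the 18 Purkinje cell genes were wide enough to be compared. Of these, 4 and 8 had r above 0.9, against 2.74% of all genes compared. So did 1 of 6 choroid plexus genes, which was Otx2, 1 of 2 Bergmann glia genes and 1 of 3 interneuron and unipolar brush cell genes. None did among 7 striatal and 12 Hox genes. The filter on range favours genes with wide swings, so these shares do not describe the whole lists.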

How the data were processed

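Intensity values per spot of 8 one-colour arrays were read from the deposited scanner output (62976 spots, 59305 of them no controls), made with Agilent Feature Extraction, version 10.7.1.1 per the file headers but 9.5.1.1 in the submitters' processing notes. The processed signal already had background subtracted, per the file headers. Flags per spot were used as deposited. A table of the authors' processed intensities (56605 probes, median 50.2 in each of 8 columns) served as an alternative; its linear scale and equal array medians were read from its values and their correlation with the scanner signals (0.997 to 0.9999), it held no ratio and so no direction, and 0 columns were left unassigned.

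Signals were put on a log2 scale, each array's 75th percentile was subtracted, and 38 to 73 outlier spots per array were left out. Replicate spots were averaged. Probes were kept when 2 or more arrays had them well above background, and a gene was its kept probe with the highest mean. Of 56600 probes, 32987 were named by accession, 10227 by symbol and 519 by synonym through RefSeq, and 12867 kept the file's name. Counts at 2-fold used genes that were not dim on both arrays of the pair, with dim values raised to the lowest well-above-background signal. Named genes were the 10 members, up to 4 genes per list with the widest range, and the 10 genes most like the members; a noncoding region and a few list genes used to check the labels were named after their values were seen. The members and lists were chosen with earlier results of these data known. With 1 array per group no test was made. Alternatives were normexp (limma 3.58.1, R 4.3.3, offset 50), median centring, quantile normalization, the authors' values, the mean of probes, other filters and a 3-fold threshold. The counting was tested on simulated data. Precision is limited by the number of arrays.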

Additional observations from a re-analysis of the deposited data

Results flagged for a closer look

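The difference between Cx47-deficient and WT samples had opposite signs with iguratimod and in untreated EAE for each of the 10 genes. With 1 array per group the difference between the 2 conditions was not tested. On the log2 scale the Cx47-deficient minus WT difference with iguratimod, minus that in untreated EAE, was -5.00 for Cbln3, -4.99 for Gabra6 and -4.88 for Cnpy1. It was -4.39 for En2, -4.17 for Neurod1, -4.04 for Pcp2 and -3.61 for Cbln1. The smallest were -3.37 for Zic2, -2.97 for Zic1 and -2.22 for Calb1. With normexp background correction the iguratimod and EAE differences were -1.49 and 1.92 for Cbln3 and -1.46 and 1.88 for Cnpy1. Each was smaller in size than that of Gabra6, En2, Neurod1, Pcp2 and Cbln1. The high places of Cbln3 and Cnpy1 in this order therefore depend on the background correction. Over the 10 genes the median of the iguratimod difference minus the naive one was -3.85, and minus the chronic one -2.59 across the 2 slides. All of these use the same pair of iguratimod arrays.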

How the results depend on the processing

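No paired analysis was possible because each group is 1 array. All 70 medians of the 10 genes under the alternatives kept their sign, as did 524 of 525 single values of 2-fold or more. The exception was Cnpy1 in WT EAE minus naive, -1.85 on the probe used and 0.004 as the mean of its probes, 2 of which were dim. Among all 700 single values of any size 2 changed sign. The other was Cbln3 in Cx47-deficient chronic minus acute EAE, at -0.31 and 0.18 with normexp. Medians moved by more than the scanner error as follows. Normexp background correction gave 1.996 for Cx47-deficient minus WT in EAE, -1.51 with iguratimod, and in WT mice -1.18 for EAE minus naive, 2.39 for iguratimod minus EAE and 1.62 for chronic minus acute EAE. Single genes that normexp moved by over 1.5-fold were Cbln3, Cnpy1 and Zic2, the last to 1.70 for WT iguratimod minus EAE (2.32 otherwise) and 1.65 for WT chronic minus acute EAE (2.31 otherwise). Median centring gave 1.78 in naive mice and 1.94 in EAE for Cx47-deficient minus WT, 1.60 for WT chronic minus acute EAE, and -0.85 for Cx47-deficient iguratimod minus EAE, where 3 genes were 2-fold lower in place of 6 (2.20% of all genes lower). It shifted the median of all genes to -0.38, -0.37, -0.64 and 0.21 in these 4 comparisons. The mean of probes gave 2.01 for Cx47-deficient minus WT in EAE and, in WT mice, -1.37, 2.74 and 1.99 for EAE minus naive, iguratimod minus EAE and chronic minus acute EAE, the last being 1.99 with quantile normalization and 1.98 with the authors' values. At 3-fold, 1 gene was higher in chronic Cx47-deficient than WT samples in place of 4 (0.351% of all genes higher at 3-fold). In Cx47-deficient mice 2 were lower in EAE than naive in place of 8 (0.205% of all genes lower). There, 1 was lower with iguratimod in place of 6 (1.04% of all genes lower). For chronic against acute EAE 1 was higher in place of 2 (4.23% of all genes higher). The cause of these moves was not tested beyond what each setting changes. Among all genes of 2-fold or more, the share that was higher was 75.4% in naive and 90.8% in EAE Cx47-deficient minus WT samples, against 36.8% and 53.0% with median centring and 53.9% and 68.1% with quantile normalization. It was 53.5% in the iguratimod pair (40.9% with median centring). For Cx47-deficient iguratimod minus EAE it was 7.06%, against 26.0% with median centring and 24.6% with quantile normalization, for Cx47-deficient chronic minus acute EAE 67.8%, against 51.4% and 54.6%, and for WT chronic minus acute EAE 59.1%, against 26.1% and 42.8%; the authors' values gave shares within 2 points of the quantile ones.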
